A study of Bos taurus with 2 samples.

Results

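The family of mir-130, mir-301 and mir-454 is a group of vertebrate miRNAs that share the bases at their 5′ end. Its members were taken here as every arm of mir-130a, mir-130b, mir-301a, mir-301b and mir-454 among the known bovine miRNAs. Of these 5 names, 3 were listed, each with its 3p arm only, namely mir-130a-3p, mir-130b-3p and mir-454-3p. They are 3 of 283 known miRNAs and of 884 unique miRNAs in all. The names mir-301a and mir-301b were not listed among the known miRNAs. The lowest value listed for a miRNA that was found was 3 reads, so no level and no upper limit is given for these 2 names. A candidate hairpin that matches the RefSeq gene MIR301A in chromosome, length and distance to mir-454 is described below.

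Small RNA libraries were made from the bovine mammary gland (MG), 1 from a cow of 6 years that had been in milk for 2 months (lactation period) and 1 from a cow of 4 years that was neither lactating nor pregnant (non-lactation period). No other treatment separated the cows by the labels, and age cannot be told apart from stage with 1 cow in each. The most abundant sequences of the 884 miRNAs held 5745961 reads in the lactation library, against 7879028 reads in the non-lactation library. For each miRNA there was a read number of its most abundant sequence, a read number of all its isomiRs (its length and sequence variants) and the number of different isomiR sequences. RPM count the most abundant sequence in every 1000000 clean reads of a library, and a ratio is the lactation RPM over the non-lactation RPM. Each value has an exact 95% interval (Clopper-Pearson), which covers counting error only. No difference between the periods has a replicate check in these libraries. The study also ran a custom microarray on RNA pooled from cows of each period, which was not used here. A two-sided Fisher's exact test of the reads, with Bonferroni adjustment over 883 miRNAs, compares these libraries and not the conditions.

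A miRNA guides the silencing complex to messenger RNAs, mainly through pairing of its seed, bases 2 to 8 from the 5′ end, with sites in the target. miRNAs with one seed can therefore share targets. In human preadipocytes miR-130a represses PPARG, the nuclear receptor that drives fat cell differentiation and that also regulates genes of milk fat synthesis in ruminant mammary cells. In human endothelial cells miR-130a represses the homeobox factors GAX and HOXA5, which restrain vessel growth. In human, miR-301a and miR-454 lie within SKA2, the gene of a kinetochore protein.

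The mature sequences are shown because the seed defines the family and the bases after it tell the members apart. They are written 5′ to 3′ as listed by the authors, with the seed in capitals. CN-82-3p, a candidate miRNA predicted from the genome (prefix CN), is shown with the members because it was the other listed miRNA with this seed.
mir-130a-3p: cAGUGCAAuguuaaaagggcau
mir-130b-3p: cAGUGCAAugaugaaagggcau
mir-454-3p: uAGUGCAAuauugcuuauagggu
CN-82-3p: cAGUGCAAuaguauuguca
The seed AGUGCAA stood at bases 2 to 8 of 4 of the 884 miRNAs (0.452%), which are the 4 above. It stood anywhere in the mature sequence of 5 (0.566%), the fifth being CN-402-3p. mir-130a-3p and mir-130b-3p were the closest pair, with 20 of 22 bases identical. They shared their first 10 bases and differed by U11A and A13G, with positions counted from 1 at the 5′ end, the base of mir-130a-3p first and that of mir-130b-3p last. mir-454-3p was the most distant of the members, with 10 of 22 bases identical to mir-130a-3p by position and AGUGCAAU as the longest shared stretch. CN-82-3p was listed with 19 nt and shared its first 9 bases with mir-130a-3p, and its longest stretch in common with mir-454-3p was AGUGCAAUA.

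On the BTA 4.0 genome the mir-130a hairpin lay at chr15:81392289-81392377 on the plus strand (89 nt) and the mir-130b hairpin at chr17:75481463-75481544 on the plus strand (82 nt). The mir-454 hairpin lay at chr19:9358077-9358190 on the minus strand (114 nt). No other listed hairpin lay within 200 kb of mir-130a or of mir-130b. Within 10 kb of mir-454 there was 1 other hairpin, CN-82, at chr19:9367738-9367822 on the minus strand (85 nt), with 9661 bases from start to start. In the RefSeq annotation of the ARS-UCD 2.0 assembly, which is another build, MIR301A and MIR454 are also 9661 bases apart, MIR301A is 85 nt long, and both lie within SKA2. The annotation holds all 5 family genes, and it places MIR301B next to MIR130B, 311 bases from start to start. The hairpin lengths of mir-130a, mir-130b and mir-454 were the same in the files and in RefSeq. CN-82 thus matched MIR301A in chromosome, hairpin length and distance to mir-454, so its reads may be those of mir-301a. It is called by its listed name here, since its mature sequence was not compared with that of bovine mir-301a.

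The hairpins of CN-416 and CN-401, which have the coordinates of mir-130a and mir-130b, and of CN-82 are shown because they place both arms of each precursor. Capitals mark the listed arms, the 5p arm first and the 3p arm with the seed second.
CN-416 hairpin: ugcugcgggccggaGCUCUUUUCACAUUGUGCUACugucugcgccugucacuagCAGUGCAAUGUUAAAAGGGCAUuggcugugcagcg
CN-401 hairpin: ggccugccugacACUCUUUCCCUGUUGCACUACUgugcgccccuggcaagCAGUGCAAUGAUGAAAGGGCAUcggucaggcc
CN-82 hairpin: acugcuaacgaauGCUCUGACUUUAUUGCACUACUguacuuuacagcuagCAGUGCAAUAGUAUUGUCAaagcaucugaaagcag
The 5p arms of CN-401 and CN-82 hold UUGCACU, the reverse complement of the seed, from base 13. The 5p arm of CN-416 holds UUGUGCU there, which is complementary to the seed at 5 of 7 bases by Watson-Crick pairs and at 7 of 7 when G-U pairs are allowed.

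mir-130a-3p was the member with the most reads in both periods and was lower in the lactation library. Its most abundant sequence had 245 reads in the lactation library, against 573 reads in the non-lactation library. This was 20.5 RPM (95% interval 17.99 to 23.2) in the lactation library, against 35.9 RPM (33.0 to 38.9) in the non-lactation library, and the intervals do not overlap. The level was 1.75-fold lower in the lactation library (1.51 to 2.04), a log2 ratio of -0.81, with an exact Fisher p of 3.353e-11 after Bonferroni adjustment. Among the known miRNAs it ranked 118 in the lactation library, against 101 in the non-lactation library.

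mir-130b-3p, which differs from mir-130a-3p outside the seed only, did not pass the adjusted test. It had 67 reads in the lactation library, against 57 reads in the non-lactation library. This was 5.60 RPM (4.34 to 7.11) in the lactation library, against 3.57 RPM (2.70 to 4.62) in the non-lactation library, and these intervals overlap. The ratio was 1.57 (1.09 to 2.27), a log2 ratio of 0.65, with an exact Fisher p of 0.014 before and 1.0 after Bonferroni adjustment. With Benjamini-Hochberg adjustment over the same miRNAs the exact Fisher p was 0.0328. These values hold for clean reads as totals. The ratio was 1.31 with TMM factors, 1.29 with DESeq2 size factors and 1.18 without scaling. The interval shifts with the ratio and then takes in equal levels.

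mir-454-3p was near the floor of the data, with 4 reads in the lactation library, against 6 reads in the non-lactation library. Its level was 0.334 RPM (0.0911 to 0.856) in the lactation library, against 0.376 RPM (0.138 to 0.818) in the non-lactation library. The ratio of 0.890 had an interval of 0.185 to 3.75, so that a 2-fold difference in either direction lay inside it and would not have been detectable at this depth. CN-82-3p had as few reads, 6 in the lactation library, against 4 in the non-lactation library, with a ratio of 2.00 (0.475 to 9.64).

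The order of levels was mir-130a-3p, mir-130b-3p and mir-454-3p in both periods, and the intervals of neighbours in this order did not overlap within a library. CN-82-3p and mir-454-3p could not be ordered, since their intervals overlapped in each library. These are levels by read number, and the capture of each sequence in library construction was not measured.

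**Figure D1:**
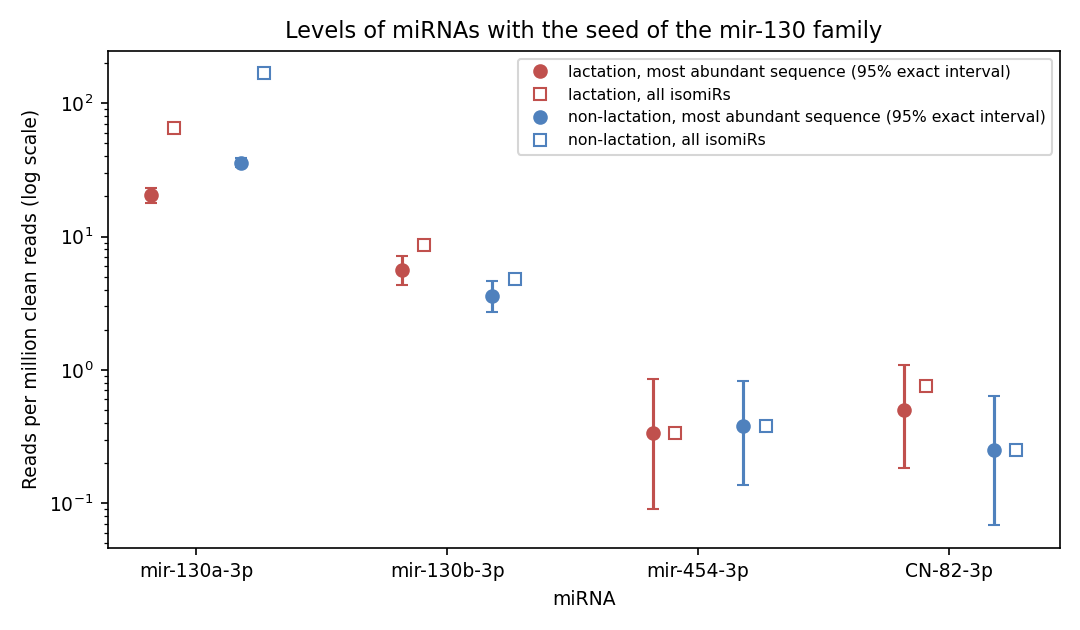
RPM (log scale) of the 3 members and of CN-82-3p in the lactation library (red, left of each pair) and the non-lactation library (blue); filled points are the most abundant sequence with its exact 95% interval and open squares are all isomiRs. The lactation point of mir-130a-3p, 20.5 RPM, lies below its non-lactation point, 35.9 RPM, and the points of mir-454-3p and CN-82-3p lie below 1 RPM in both libraries.

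Lower in the lactation library by Fisher's exact test with Bonferroni adjustment was 1 of the 3 members, beside 96 of the 883 miRNAs tested (10.9%). None of the members was called higher, beside 17.4% of the miRNAs tested, and in either direction 28.3% were called. At the depth of mir-130a-3p calls were common: of the 273 miRNAs with at least 100 summed reads, 31.9% were called lower and 42.1% higher (74.0% in either direction), and 25.6% had a ratio as low as that of mir-130a-3p or lower. The ratio of mir-130b-3p or a higher one was found for 38.1% of the same miRNAs. mir-130a-3p and mir-130b-3p had at least 100 summed reads and were neither 2-fold lower nor 2-fold higher with clean reads as totals, whereas 22.7% of the 273 were at least 2-fold lower and 28.9% at least 2-fold higher. The median log2 ratio was -0.17 over the 3 members, 0.24 over the miRNAs with at least 100 summed reads and 0.43 over the 739 tested miRNAs with more than 3 reads in a library. Relative to the median of the 273 miRNAs, the log2 ratios were -1.05 for mir-130a-3p, 0.41 for mir-130b-3p and -0.41 for mir-454-3p. These relative values are the same under every library total by construction, since a total shifts all ratios alike. Set against clean reads as totals, the median of all ratios moved by a log2 of -0.42 without scaling, -0.26 with TMM factors, -0.28 with DESeq2 size factors and -0.10 with raw reads as totals. mir-130a-3p was past the 2-fold mark without scaling (0.428), with TMM factors (0.476) and with DESeq2 size factors (0.469).

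**Figure D2:**
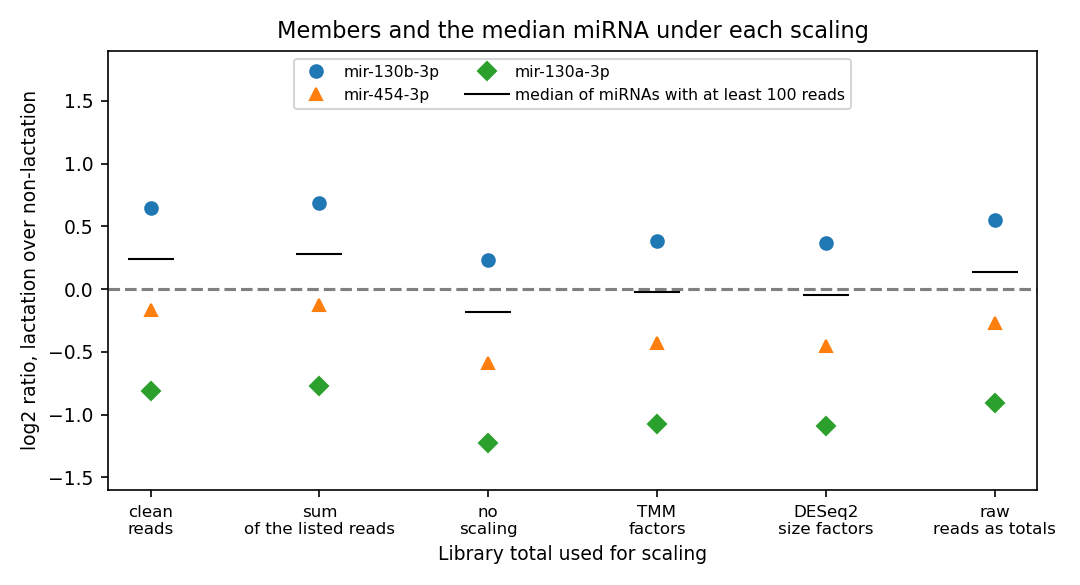
log2 ratio (lactation over non-lactation) of each member under 6 library totals, with the median of the 273 miRNAs with at least 100 summed reads as a bar. mir-130b-3p lies above and mir-130a-3p below the bar throughout, which holds by construction, and all points move down by 0.42 when no scaling is used.

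The shares of mir-130a-3p and mir-130b-3p in the family differed between the libraries. mir-130a-3p held 77.5% (72.5 to 82.01) of the family's reads in the lactation library, against 90.1% (87.5 to 92.3) in the non-lactation library. mir-130b-3p held 21.2% (16.8 to 26.1) in the lactation library, against 8.96% (6.86 to 11.5) in the non-lactation library. For each read of mir-130b-3p there were 3.66 reads of mir-130a-3p in the lactation library, against 10.1 in the non-lactation library. This comparison needs no library total. The odds ratio of mir-130b-3p to mir-130a-3p, lactation over non-lactation, was 2.75 (1.84 to 4.11), with an exact Fisher p of 1.042e-06 after Benjamini-Hochberg adjustment over the 3 pairs of members compared. The pairs with mir-454-3p were not resolved. The odds ratio was 1.56 (0.321 to 6.64) for mir-454-3p to mir-130a-3p and 1.76 (0.394 to 8.89) for mir-130b-3p to mir-454-3p, each with an adjusted exact Fisher p of 0.515.

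Summed over the 3 members, the seed had 316 reads (26.4 RPM) in the lactation library, against 636 reads (39.8 RPM) in the non-lactation library, a ratio of 0.663 (0.578 to 0.760). With CN-82-3p added the ratio was 0.671. The sum followed mir-130a-3p: without it, 71 reads were left in the lactation library, against 63 in the non-lactation library, a ratio of 1.504 (1.06 to 2.15). With TMM or DESeq2 factors or without scaling this interval also shifts to take in equal levels.

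The isomiRs of mir-130a-3p differed between the libraries by more than its most abundant sequence did. All isomiRs of mir-130a-3p had 784 reads (65.5 RPM) in the lactation library, against 2677 reads (167.6 RPM) in the non-lactation library. This was 2.56-fold lower in the lactation library (2.36 to 2.77), and without the most abundant sequence the other isomiRs were 2.92-fold lower (2.66 to 3.22). The number of different sequences was 15 in the lactation library, against 17 in the non-lactation library. Beside the most abundant sequence, the mean number of reads per isomiR sequence was 38.5 in the lactation library, against 131.5 in the non-lactation library.

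For mir-130a-3p the most abundant sequence held 31.2% (28.0 to 34.6) of the isomiR reads in the lactation library, against 21.4% (19.9 to 23.0) in the non-lactation library. The odds ratio was 1.67 (1.39 to 2.00), with an exact Fisher p of 1.28e-05 after Bonferroni adjustment over 482 miRNAs. A share higher in lactation was called for 8.51% of these 482 and for 18.2% of the 187 known miRNAs with at least 100 summed reads. Both shares of mir-130a-3p were low among those 187 miRNAs, whose median was 46.7% in the lactation library, against 46.2% in the non-lactation library. A lower share was found for 27 of the 187 in the lactation library, and for 8 in the non-lactation library. The log2 ratio of all isomiRs minus that of the most abundant sequence was -0.55 for mir-130a-3p, and 9 of the 187 had a lower value, around a median of 0.01.

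mir-130b-3p had a different make-up. Its isomiRs had 103 reads in 6 sequences in the lactation library, against 77 reads in 4 sequences in the non-lactation library. This was a ratio of 1.79 (1.32 to 2.43) with an exact Fisher p of 0.0886 after Bonferroni adjustment. The most abundant sequence held 65.0% (55.0 to 74.2) of these reads in the lactation library, against 74.0% (62.8 to 83.4) in the non-lactation library. The odds ratio of 0.655 had an interval of 0.321 to 1.31, with an exact Fisher p of 0.255 before adjustment. A share lower in lactation was called for 10.4% of the 482 miRNAs and for 20.3% of the 187. A share below that of mir-130b-3p was found for 152 of the 187 known miRNAs in the lactation library, and for 171 in the non-lactation library. mir-454-3p had 1 sequence in each library, so that its isomiR reads are those of the most abundant sequence.

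**Figure D3:**
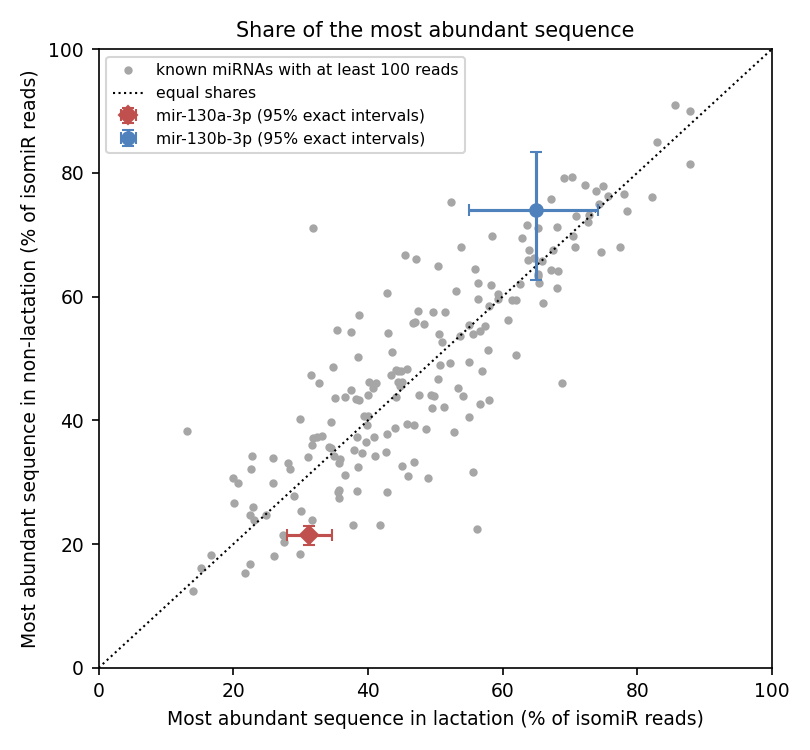
Share of isomiR reads held by the most abundant sequence in the lactation library (horizontal axis, %) and the non-lactation library (vertical axis, %) for 187 known miRNAs (grey), mir-130a-3p (red) and mir-130b-3p (blue), with exact 95% intervals. mir-130a-3p lies below the line of equal shares at 31.2% and 21.4%, and mir-130b-3p lies high on both axes with wide intervals.

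Since the number of isomiR sequences can depend on read number, each member was set beside the 10 known miRNAs nearest to it in isomiR reads. In the lactation library mir-130a-3p had 15 sequences and the 10 miRNAs had 9 to 22, with a median of 15. In the non-lactation library it had 17 sequences and the 10 miRNAs had 16 to 36, with a median of 24, so that it lay at the low end there. mir-130b-3p had 6 sequences in the lactation library, within 5 to 10 for its neighbours, and 4 in the non-lactation library, within 4 to 7.

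The pair of mir-130b-3p and mir-130a-3p was also compared over all isomiRs. There were 7.61 isomiR reads of mir-130a-3p per isomiR read of mir-130b-3p in the lactation library, against 34.8 in the non-lactation library. The odds ratio was 4.57 (3.33 to 6.29), with an adjusted exact Fisher p of 1.179e-21 over the 3 pairs. Its interval overlaps that of the most abundant sequences.

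**Figure D4:**
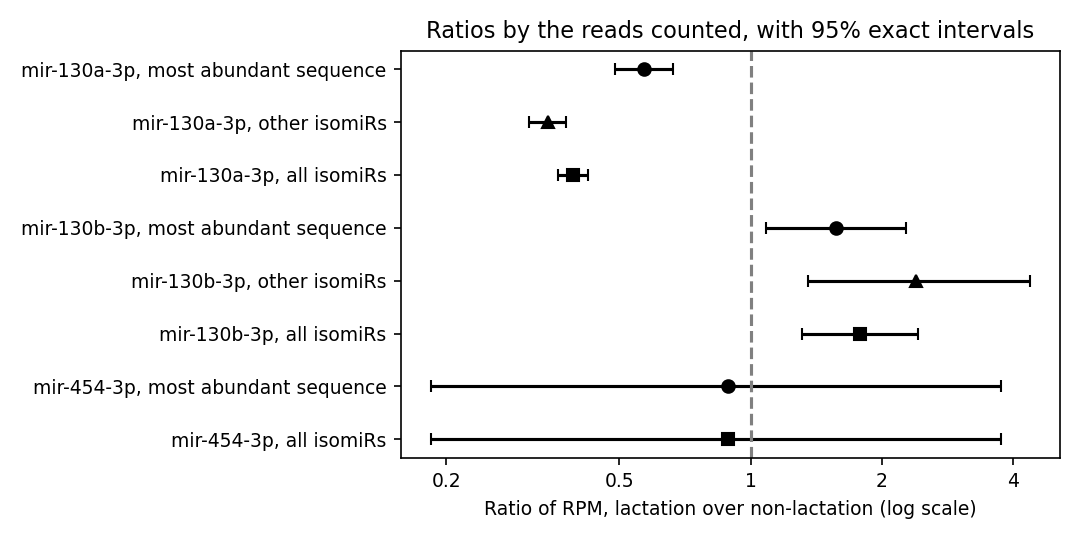
Ratio of RPM, lactation over non-lactation (log scale), of each member by the reads counted, with exact 95% intervals; the dashed line marks equal levels. All 3 counts of mir-130a-3p lie left of the line, all 3 of mir-130b-3p lie right of it, and the intervals of mir-454-3p span it.

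The other arms of the members' hairpins were listed among the CN candidates and were rare. CN-416-5p, the 5p arm of the mir-130a hairpin, had 4 reads in the lactation library, against 9 in the non-lactation library, or 1.61% (0.439 to 4.06) and 1.55% (0.709 to 2.92) of the reads of both arms. CN-401-5p, the 5p arm of the mir-130b hairpin, had 3 reads in each library, or 4.29% (0.893 to 12.02) in the lactation library, against 5.0% (1.04 to 13.9) in the non-lactation library. These shares lay inside the middle range of 109 hairpins with a known arm and a CN arm, where the CN arm had a median share of 1.49% in the lactation library (quartiles 0.124 to 13.03) and 1.25% in the non-lactation library (0.0947 to 9.92). At CN-82 neither arm led: the 5p arm had 4 reads and the 3p arm 6 reads in the lactation library, against 7 and 4 reads in the non-lactation library. The 5p share was 40.0% (12.2 to 73.8) in the lactation library, against 63.6% (30.8 to 89.1) in the non-lactation library.

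Other miRNAs hold part of the seed of the family at a shifted place, and a pair is shown because of the overlap. Capitals mark bases 2 to 8.
mir-19b-3p: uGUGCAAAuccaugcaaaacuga
mir-148a-3p: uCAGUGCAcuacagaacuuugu
GUGCAA stood at bases 2 to 7 of 3 listed miRNAs, mir-19a-3p, mir-19b-3p and PC-19b-3p, and AGUGCA at bases 3 to 8 of 3 others, mir-148a-3p, mir-148b-3p and mir-152-3p. mir-19a and mir-19b belong to the mir-17-92 group of proliferation-associated miRNAs, and mir-148a is one of the most abundant miRNAs of milk. Of the 5 known miRNAs among them, 4 were called higher in the lactation library and 0 lower. Of all 883 miRNAs tested, 17.4% were called higher and 10.9% lower. Of the 273 with at least 100 summed reads, which leave out mir-19a-3p, 42.1% were called higher and 31.9% lower. The ratio was 7.60 (7.45 to 7.76) for mir-148a-3p and 1.55 (1.43 to 1.68) for mir-148b-3p. It was 1.33 (1.26 to 1.42) for mir-19b-3p and 1.18 (1.14 to 1.22) for mir-152-3p, and neither exceeded 1 without scaling, nor did mir-152-3p with TMM or DESeq2 factors. mir-19a-3p, with 13 reads in the lactation library, against 8 in the non-lactation library, was not called.

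The mir-27 miRNAs, which also repress PPARG in mouse and human fat cell precursors, were called in opposite directions with clean reads as totals. mir-27a-3p had 773 RPM in the lactation library, against 591 RPM in the non-lactation library, and its ratio of 1.31 (1.27 to 1.34) was called, but was below 1 (0.979) without scaling. mir-27b-3p had 776 RPM in the lactation library, against 1366 RPM in the non-lactation library, 1.76-fold lower (1.72 to 1.80) and called. PPARG itself was not measured.

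By level in both libraries, the known miRNAs nearest to mir-130a-3p were mir-379-5p (25.9 RPM in lactation, 33.5 RPM in non-lactation), mir-215-5p (16.5 RPM and 42.5 RPM) and mir-196a-5p (29.2 RPM and 35.6 RPM), at distances of 0.354, 0.397 and 0.515 in log2 RPM. Nearest to mir-130b-3p were mir-655-3p (4.85 RPM and 3.57 RPM), mir-421-3p (5.77 RPM and 3.07 RPM) and mir-432-5p (6.69 RPM and 3.63 RPM), at distances of 0.208, 0.222 and 0.257. Likeness was measured over 2 libraries, so many miRNAs come close by level alone.

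MG tissue is a mixture of cells, and fewer cells of a type cannot be told apart from less RNA per cell. The libraries differed in markers of several cell types beside mir-130a-3p. All 5 miRNAs of the mir-200 family (mir-200a, mir-200b, mir-200c, mir-141 and mir-429), which mark epithelium, were called higher, beside 42.1% of the 273 miRNAs with at least 100 summed reads, with a summed level of 12201 RPM in the lactation library, against 1903 RPM in the non-lactation library. mir-205-5p, an epithelial miRNA outside that family that was named after its values were seen, had 184 RPM in the lactation library, against 693 RPM in the non-lactation library, 3.76-fold lower (3.59 to 3.93). Both arms of mir-126, an endothelial miRNA, were called higher, again beside 42.1% of the 273 miRNAs. Together they had 487 RPM in the lactation library, against 165 RPM in the non-lactation library. Of 6 miRNAs of smooth muscle and stroma, 3 were called lower (mir-199a-3p, mir-199a-5p and mir-199b-5p), 2 higher (mir-143-3p and mir-145-5p) and mir-214-3p in neither direction, where mir-145-5p was below equal levels without scaling (0.880) and with TMM (0.979) or DESeq2 (0.966) factors. The 5 that were called all belong to the 273 miRNAs with at least 100 summed reads, of which 74.0% were called. mir-214-3p was read too rarely to belong to them, so it is left out of this comparison. The 6 together had 8640 RPM in the lactation library, against 14558 RPM in the non-lactation library. Of these sums mir-199a-3p held 2100 RPM in the lactation library, against 9968 RPM in the non-lactation library. The next largest went the other way, mir-145-5p with 4036 RPM in the lactation library, against 3436 RPM, and mir-143-3p with 2471 RPM, against 1050 RPM. The lower sum is therefore not a trait of the whole list. mir-199a-3p was 4.75-fold lower (4.68 to 4.81) in the lactation library. The 5 blood cell miRNAs summed to 125 RPM in the lactation library, against 131 RPM in the non-lactation library, with 1 called higher, 2 called lower and mir-144-3p listed at 0 in the non-lactation library. The 3 miRNAs of striated muscle summed to 4480 RPM in the lactation library, against 696 RPM in the non-lactation library. Nearly all of this was mir-1-3p, with 4393 RPM in the lactation library, against 691 RPM in the non-lactation library. mir-1-3p and mir-133a-3p were called higher, beside 17.4% of all 883 miRNAs tested. mir-206-3p, with 13 reads in the lactation library, against 5 in the non-lactation library, was not called. The part of these differences in the values of mir-130a-3p was not tested.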

How the data were processed

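Small RNA of 1 MG per period was sequenced on an Illumina Genome Analyzer. The study names a Qiagen miRNeasy kit and an Illumina small RNA kit, and the labels name Trizol and TruSeq. The authors took out adaptor sequence, reads of low quality and other classes of RNA, mapped the rest with ACGT-miR (version not given in the sources used here) to miRBase 17.0 and BTA 4.0, and deposited raw read counts per miRNA. The deposited tables also give the number of isomiR sequences as other values. The isomiR columns of the CN table were read in the reverse of their header, because in header order the isomiR total of 394 of 502 entries was smaller than the main sequence alone, against 4 as read, and 7 CN miRNAs were left out of isomiR sums. The isomiR columns of the conserved table were not used.

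RPM used the clean reads stated by the study as totals. Ratio intervals were conditional on summed reads. A listed 0 was set to 3 reads. At 100 summed reads or more, miRNAs counted as well read. Fisher's exact test used a threshold of 0.05. With 1 library per stage no dispersion can be estimated, so edgeR 4.0.16 and DESeq2 1.42.0 in R 4.3.3 gave scaling factors only. Other steps ran in Python 3.11.15 with scipy 1.17.1, pandas 2.3.3, numpy 2.4.6 and matplotlib 3.10.9, and the calculations were tested on simulated counts. Named miRNAs were the members, those sharing their seed, hairpin, 10 kb neighbourhood or an overlapping seed, mir-27a and mir-27b, the 3 known miRNAs nearest in level to mir-130a-3p and mir-130b-3p, and cell type markers. Members and lists were chosen with earlier results of these data known. CN-402-3p and PC-19b-3p were named after the seed search, and mir-205-5p after its values were seen. Alternatives were other library totals, all isomiR reads, another adjustment and other read minimums. RefSeq genes were matched by symbol, and their positions gave only distances between genes, gene lengths and the genes that contain them.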

Additional observations from a re-analysis of the deposited data

How the results depend on the processing

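Of 38 values computed under another setting, 32 stayed on their side of the threshold or within the error of the reported value, 6 moved and 0 changed direction. Those 32 include ratios of mir-130a-3p that stayed called by the adjusted Fisher's exact test but left the reported interval (0.489 to 0.664). These were the ratios without scaling, with TMM factors, with DESeq2 size factors and over all isomiR reads, each past the 2-fold mark. The ratio of the summed family, 0.663 with clean reads as totals, was 0.497 without scaling, 0.553 with TMM factors, 0.545 with DESeq2 size factors and 0.431 over all isomiR reads, below 1 each time. The count of miRNAs called by Fisher's exact test was 250 with Bonferroni and 410 with Benjamini-Hochberg adjustment, which is the less strict of the 2. The count at least 2-fold different was 141 with a minimum of 100 summed reads and 277 with a minimum of 10, which admits more miRNAs. The ratio of mir-130a-3p was between 0.428 without scaling and 0.586 with the sum of the listed reads, and that of mir-130b-3p between 1.18 and 1.61 under the same library totals. Over all isomiR reads they were 0.391 and 1.79, outside both ranges. Depth limits mir-454-3p, whose ratio rests on 4 and 6 reads. No library could be left out, since there was 1 per stage. No paired analysis was possible because each stage had 1 library.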
